A study of Homo sapiens with 12 samples.

Results

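The genes described here are 41 genes of the response to low oxygen and of glucose breakdown, chosen by symbol from a list. The choice was made with earlier results of these data known. The list holds subunits of the hypoxia-inducible factor (HIF) and their oxygen-sensing hydroxylases, the enzymes of glycolysis, the regulators of glycolytic flux, and genes that HIF is known to switch on. Of the 41, 23 had a transcript cluster (the array's unit of measurement, a group of probes to 1 transcript region) under their symbol, among 14884 genes measured in the whole series. The other 18, HIF1A, PFKP, PFKL, PFKM, ALDOA, ALDOC, ENO1, ENO2, PKM, PFKFB3, PFKFB4, PDK1, GBE1, CA9, P4HA1, P4HA2, PLOD2 and BHLHE40, were not analysed here. No regulator of flux, neither PFKFB nor PDK, was therefore covered, and only 8 of the 16 listed glycolytic enzymes were.

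The study measured the effect of JQ1, a small molecule that occupies the bromodomains of BET proteins and keeps them from acetylated histones, on RNA in a pair of established human triple-negative breast cancer lines, MDA-MB-231 and HCC70. Each line was grown for 72 hours with 500 nM JQ1 or with 0.1% DMSO as vehicle, which gave 4 groups of 3 Human Gene 2.0 ST arrays, 12 arrays in all. The labels name no low-oxygen or low-glucose treatment, and they do not give the oxygen or glucose that the cells met. Each line is a single established line, and a difference between them is a difference between these lines only. Whether the 3 arrays of each group were grown as separate cultures is not stated in the labels; p-values then measure only the spread between these arrays, which may be technical.

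HIF joins an alpha subunit, such as EPAS1 or HIF1A, to ARNT. When oxygen is present, the prolyl hydroxylases EGLN1 and EGLN3 mark the alpha subunit for destruction, and when oxygen falls the factor binds short DNA elements with a core of ACGTG or GCGTG. Its targets raise glucose uptake and glycolysis, send pyruvate to lactate, recruit blood vessels and remove mitochondria, and many tumour cells keep part of this programme on in ordinary oxygen.

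The arrays were closely alike within groups: 2 arrays of a group correlated at 0.989 to 0.995 over genes. In 3 of the 4 groups, all but vehicle-treated HCC70, the array numbered 3 had the lowest array weight of its group, 0.470 to 0.576. The other 9 arrays had weights from 0.696 (HCC70 JQ1 1) to 4.69 (HCC70 JQ1 2). Counts are also given without the 3 arrays of lowest weight. As a check of the treatment, the BET readouts BRD2 and HEXIM1 rose with JQ1 by 0.86 and 0.59 on the log2 scale in MDA-MB-231 and by 1.22 and 1.11 in HCC70, and MYC fell by 0.41 and 0.92; without those 3 arrays the HEXIM1 rise in MDA-MB-231 missed the threshold (limma adjusted p = 0.0504), and HEXIM1 in HCC70 was not called when its clusters were averaged (limma adjusted p = 0.367). Levels are log2 signals of the authors' normalization, and because probes differ in brightness they are compared within a gene only. None of the 23 genes had a group mean below the lower quartile of all genes on those arrays. EGLN3 in HCC70 came near it, with means of 4.94 with vehicle and 4.95 with JQ1 beside a quartile of 4.81.

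Promoter windows, from 250 bases before to 50 after a transcription start, were matched by symbol in RefSeq (GRCh38.p14) for 19 of the 23 genes; those of VEGFA, NDRG1, BNIP3L and STC1 were not used here. The 250 bases before the start follow for 5 genes on which the results turn, read 5' to 3' in the sense of the gene, with capitals marking each match to the HIF core (ACGTG or GCGTG, or their reverse complements CACGT and CACGC). Of the 19 matched genes BNIP3 and LDHA differed most between the lines, KDM3A and ADM rose with JQ1 in both lines, and ERO1A and BNIP3 responded differently in the lines. The stretches are chr10:131981924-131982173 on the minus strand (BNIP3), chr11:18394313-18394562 on the plus strand (LDHA), chr2:86441121-86441370 on the plus strand (KDM3A), chr11:10304823-10305072 on the plus strand (ADM) and chr14:52695559-52695808 on the minus strand (ERO1A). For LDHA and KDM3A, which have 2 windows each, 1 is shown.
BNIP3: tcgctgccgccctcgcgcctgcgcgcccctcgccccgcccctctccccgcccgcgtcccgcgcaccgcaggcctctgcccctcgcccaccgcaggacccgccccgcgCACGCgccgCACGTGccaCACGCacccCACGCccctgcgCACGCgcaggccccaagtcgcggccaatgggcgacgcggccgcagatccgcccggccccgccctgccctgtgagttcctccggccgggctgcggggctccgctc
LDHA: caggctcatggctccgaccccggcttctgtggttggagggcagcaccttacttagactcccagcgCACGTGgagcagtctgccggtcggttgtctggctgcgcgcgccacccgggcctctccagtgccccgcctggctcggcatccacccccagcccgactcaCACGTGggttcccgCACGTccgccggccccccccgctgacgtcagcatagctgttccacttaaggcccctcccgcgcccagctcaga
KDM3A: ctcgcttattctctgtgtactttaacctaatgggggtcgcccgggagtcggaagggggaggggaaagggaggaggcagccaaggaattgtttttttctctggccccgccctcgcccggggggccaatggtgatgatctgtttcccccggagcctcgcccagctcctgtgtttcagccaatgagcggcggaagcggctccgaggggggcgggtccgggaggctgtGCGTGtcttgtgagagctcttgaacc
ADM: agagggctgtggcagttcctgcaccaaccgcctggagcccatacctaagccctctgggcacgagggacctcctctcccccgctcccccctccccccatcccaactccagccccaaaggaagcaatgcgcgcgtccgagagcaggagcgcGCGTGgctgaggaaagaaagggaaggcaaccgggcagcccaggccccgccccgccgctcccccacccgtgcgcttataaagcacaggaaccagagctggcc
ERO1A: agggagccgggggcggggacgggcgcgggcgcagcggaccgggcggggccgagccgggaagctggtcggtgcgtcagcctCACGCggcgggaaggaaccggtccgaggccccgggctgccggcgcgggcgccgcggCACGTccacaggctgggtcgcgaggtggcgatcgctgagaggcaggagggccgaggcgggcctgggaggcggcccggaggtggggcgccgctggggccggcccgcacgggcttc
The BNIP3 stretch holds 6 matches, between 143 and 104 bases before the start, and 2 of them overlap as an E-box (CACGTG, which reads the same on both strands). The LDHA stretch holds 5 matches, 4 of which form 2 E-boxes, 185 and 87 bases before the start. KDM3A and ADM hold 1 match each, 26 and 101 bases before the start, and ERO1A holds 2, at 170 and 114 bases. Over whole 300-base windows, 20 of the 31 windows of the matched genes (64.5%) held a core on either strand, beside 17012 of 35116 windows of all genes (48.4%). An E-box, each of which also contains the core, was in 5 of the 31 (16.1%) and in 7.26% of all windows. Among genes with a single window, 10 of 13 (76.9%) held a core, beside 47.3% of all such genes. The list includes known HIF targets, so a larger share of cores may come with the choice of genes. Base composition was not matched. A match of letters is a description of the sequence and shows no binding in these cells.

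The first comparison sets the vehicle-treated lines side by side. Most of the measured genes of the list were lower in HCC70 than in MDA-MB-231: of 23 genes, 19 were lower and 2 higher, while HK1 and ANGPTL4 were not called. Called means an adjusted p under 0.05 in limma's moderated test, adjusted over all 14884 genes. The 21 of 23 (91.3%) stand against 47.0% of all genes called, with 23.8% of all genes higher in HCC70 and 23.2% lower. Because the genes were chosen with earlier results of these data known, this contrast may partly reflect the choice. The median log2 difference, HCC70 minus MDA-MB-231, was -0.87 over the 23 genes and 0.03 over all genes, and the median size of the difference was 0.871 beside 0.290. The arrays of the lines did not overlap for any of the 21. This adds no support, since these genes were called on the same arrays, and the share over all genes was not counted. Without the 3 arrays numbered 3, 20 genes were called.

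**Figure D1:**
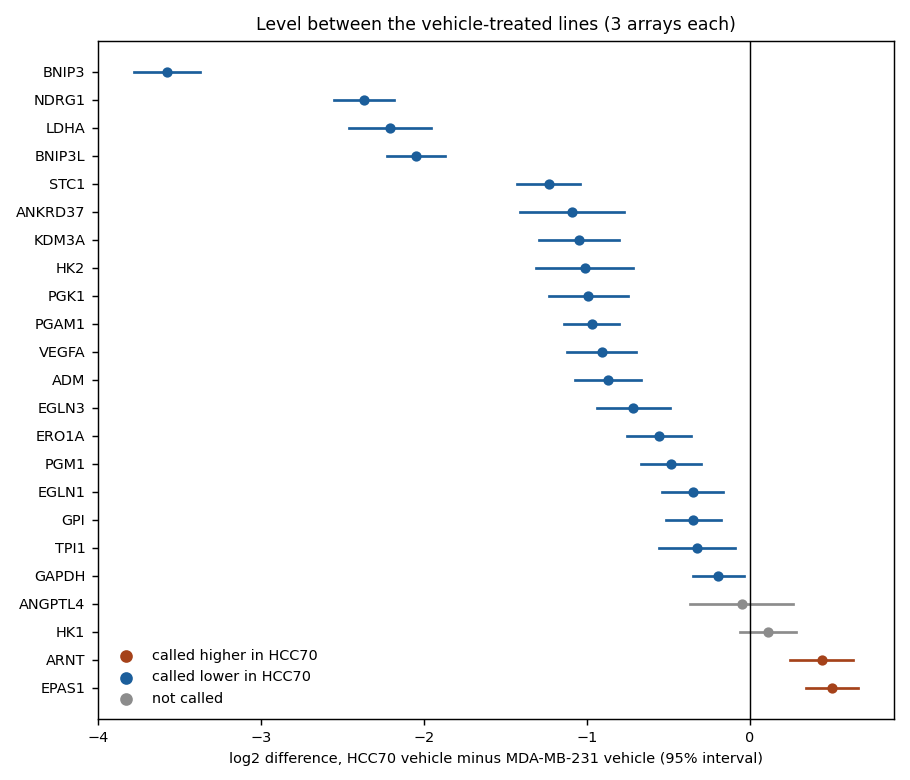
Log2 difference between the vehicle-treated lines (HCC70 minus MDA-MB-231, 3 arrays each) for the 23 genes, with 95% intervals from limma; colours give the direction of called genes. BNIP3, NDRG1, LDHA and BNIP3L lie furthest below 0, and only EPAS1 and ARNT are called above it.

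Among the oxygen sensors, the subunits of the factor and the hydroxylases went opposite ways. EPAS1, an alpha subunit, read 9.34, 9.35 and 9.38 in MDA-MB-231 and 9.87, 9.84 and 9.88 in HCC70, a difference of 0.51 ± 0.073 (SE; limma adjusted p = 6.42e-05). ARNT, its partner, read 9.56, 9.64 and 9.46 against 9.99, 10.00 and 10.00, a difference of 0.44 ± 0.089 (limma adjusted p = 9.65e-04). All HCC70 arrays lay above all MDA-MB-231 arrays for both subunits, which were called on these same arrays. EGLN1 and EGLN3 were instead lower in HCC70, with log2 differences of -0.35 and -0.71.

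Of the 8 glycolytic enzymes measured, 7 were lower in HCC70 and HK1, which starts glycolysis in most cells, was not called (0.11, 95% interval -0.06 to 0.28). LDHA, the lactate dehydrogenase subunit that favours the making of lactate, gave 8.87, 8.90 and 9.06 on the MDA-MB-231 arrays and 6.70, 6.70 and 6.80 on those of HCC70. The HCC70 level was 4.62-fold lower (log2 difference -2.21 ± 0.116 SE; limma adjusted p = 5.35e-09). HK2, the inducible hexokinase, PGK1, which makes ATP, and PGAM1, which moves the phosphate of phosphoglycerate, were lower by about the same amount, with log2 differences of -1.01, -0.99 and -0.97. GPI and TPI1, which interconvert sugar phosphates, and GAPDH, which oxidizes glyceraldehyde phosphate, differed by -0.35, -0.32 and -0.19. The last of these 3 is the least certain: GAPDH was lower at limma adjusted p = 0.0448 and was no longer called in 10 of the 12 fits that left out 1 array (adjusted p = 0.0506 to 0.116), all but those without MDA-MB-231 vehicle 3 or HCC70 JQ1 3. TPI1 (limma adjusted p = 0.0255) was not called without MDA-MB-231 vehicle 2 or 3 or HCC70 vehicle 1 or 2 (adjusted p = 0.0687 to 0.0887). GAPDH, TPI1, PGK1, PGAM1 and LDHA have near-identical processed pseudogenes in the human genome, so their probe signals may not be of the gene alone. PGM1, which links glycogen to glucose phosphate, was lower by -0.48.

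The secreted targets were lower too, apart from ANGPTL4, a lipase inhibitor (-0.05, 95% interval -0.36 to 0.27). STC1, a secreted glycoprotein, read 10.29, 10.30 and 10.07 in MDA-MB-231 and 8.98, 8.97 and 9.01 in HCC70 (log2 difference -1.23 ± 0.089 SE; limma adjusted p = 1.13e-07). VEGFA, the main growth factor of blood vessels, differed by -0.91 and ADM, a peptide that widens vessels, by -0.87. ERO1A, which re-oxidizes the enzyme that forms disulfide bonds in the endoplasmic reticulum, differed by -0.56.

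The intracellular targets held the widest gaps, and all 5 measured were lower in HCC70. BNIP3, a mitochondrial protein that marks mitochondria for removal, gave 10.32, 10.30 and 10.25 in MDA-MB-231 and 6.62, 6.90 and 6.60 in HCC70. That is an 11.9-fold lower level (log2 difference -3.58 ± 0.093 SE; limma adjusted p = 1.04e-11). BNIP3L, its relative with the same role, read 11.18, 11.02 and 11.04 against 9.06, 9.03 and 8.99 (log2 difference -2.05). NDRG1, a stress-responsive protein whose RNA is a common marker of hypoxia, read 9.41, 9.47 and 9.31 against 6.98, 7.03 and 7.07 (log2 difference -2.37). The gaps between the lines in these 3 genes were each more than 10 times the largest SD within a vehicle group. This is a description, since the 3 genes were named for wide gaps on the same arrays. The share over all genes was not counted. ANKRD37, a small ankyrin-repeat protein, and KDM3A, a histone demethylase that removes methyl groups from lysine 9 of histone H3, differed by -1.09 and -1.05.

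The lines differed in many other ways. Of 8 measured epithelial markers 6 were higher in HCC70 and 1 lower. The lower one was KRT18, not called without MDA-MB-231 vehicle 2 or 3 or HCC70 vehicle 1 (limma adjusted p = 0.0513 to 0.0962). All 4 measured mesenchymal markers were lower. ESRP1, a splicing factor of epithelial cells, had means of 4.56 in MDA-MB-231, below the lower quartile of 4.77, and 11.1 in HCC70. The receptor kinase AXL had means of 12.6 and 5.70. Of 14 proliferation genes 7 were higher in HCC70 and 5 lower. None of the 5 measured endothelial, adipocyte and fibroblast markers and neither of the 2 measured blood cell markers was called between the lines by limma, and 0 of them had an unadjusted p under 0.05. The part of these differences in the lower hypoxia and glycolysis levels was not tested. In bulk RNA, fewer cells that carry a transcript and less of it per cell cannot be told apart.

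**Figure D2:**
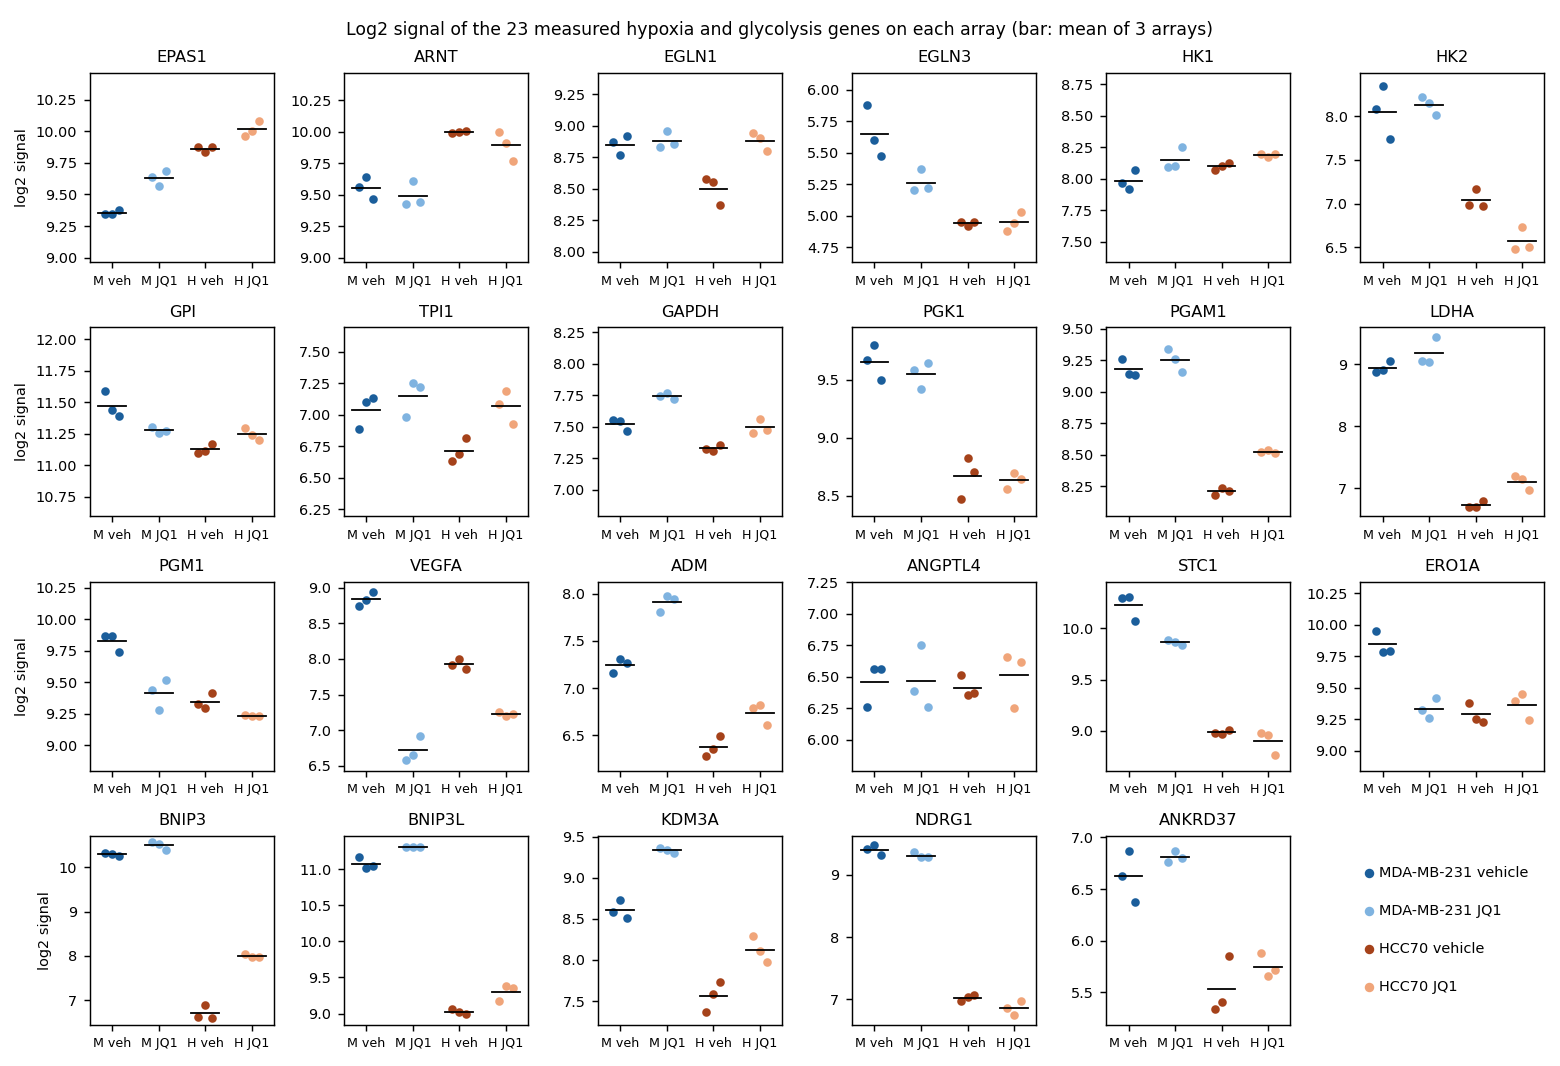
Log2 signal of each of the 23 genes on each of the 12 arrays, grouped as MDA-MB-231 (M) and HCC70 (H) with vehicle (veh) or JQ1; bars are means of 3 arrays and each panel has its own axis. The lines lie apart in most panels, VEGFA falls with JQ1 in both lines, and BNIP3 rises from 6.71 to 7.99 in HCC70.

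The second comparison asks what JQ1 did to these genes in MDA-MB-231. The measured genes did not move as 1 block: 4 genes rose (EPAS1, GAPDH, ADM and KDM3A), 5 fell (VEGFA, ERO1A, PGM1, EGLN3 and STC1) and 14 were not called. VEGFA fell furthest, 4.32-fold. The 9 of 23 called (39.1%) compare with 27.8% of all genes, and rises and falls with 10.8% and 17.0%. The median log2 change was 0.07 over the 23 genes and 0.02 over all genes, and the median sizes of change were 0.203 and 0.196. When each array was centred on its median, 7 of the 23 rose and 5 fell, and the share of rises among all called genes was 51.1% in place of 38.8%; quantile normalization gave 6 and 6, with 51.4%. Without the 3 arrays numbered 3 the count was 8.

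EPAS1 rose from 9.34, 9.35 and 9.38 to 9.64, 9.57 and 9.68 (0.28 ± 0.073 SE, limma adjusted p = 0.0130). With the MDA-MB-231 arrays fitted alone, EPAS1 was not called (limma adjusted p = 0.0621). EGLN3 went down from 5.88, 5.61 and 5.47 to 5.20, 5.37 and 5.22 (-0.39 ± 0.104 SE; limma adjusted p = 0.0136). Its 3 vehicle arrays were spread over a range as wide as the change, and the call was lost without MDA-MB-231 vehicle 1 (limma adjusted p = 0.0572) and with the line fitted alone (limma adjusted p = 0.0618). ARNT and EGLN1 were not called, with changes of -0.06 and 0.03.

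Of the 8 glycolytic enzymes only GAPDH was called, and its rise was the smallest of the 9 called changes. It read 7.55, 7.55 and 7.47 with vehicle and 7.74, 7.77 and 7.72 with JQ1 (0.22 ± 0.073 SE; limma adjusted p = 0.0393). The GAPDH call was lost with the replicate block (limma adjusted p = 0.0688), with MDA-MB-231 fitted alone (0.123), and in 10 of 12 fits that left out 1 array (0.0522 to 0.104), all but those without HCC70 JQ1 1 or HCC70 JQ1 3. The other 7 enzymes changed by -0.20 (GPI) to 0.23 (LDHA) without a call; for LDHA the 95% interval ran from -0.02 to 0.48. PGM1, off the main pathway, fell from 9.87, 9.87 and 9.74 to 9.44, 9.28 and 9.52 (-0.41 ± 0.085 SE; limma adjusted p = 0.00255).

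The secreted targets divided. VEGFA read 8.74, 8.82 and 8.93 with vehicle and 6.58, 6.66 and 6.92 with JQ1, a log2 change of -2.11 ± 0.098 (SE; limma adjusted p = 1.32e-08). STC1 fell as well, from 10.29, 10.30 and 10.07 to 9.88, 9.86 and 9.84 (-0.36 ± 0.089 SE; limma adjusted p = 0.00889). ADM moved the other way, from 7.16, 7.31 and 7.27 to 7.81, 7.98 and 7.95 (0.67 ± 0.094 SE; limma adjusted p = 1.47e-04). In each of the 3 genes the JQ1 and vehicle arrays lay apart, which adds no support, since these genes were called on the same arrays. The arrays also lay apart for HK1, GPI, BNIP3 and BNIP3L, which were not called. The share over all genes was not counted. ANGPTL4 changed by 0.01 (95% interval -0.31 to 0.32). ERO1A of the endoplasmic reticulum, with 2 core matches in the stretch printed above, fell from 9.95, 9.79 and 9.79 to 9.32, 9.26 and 9.42 (-0.51 ± 0.090 SE; limma adjusted p = 8.89e-04).

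KDM3A, the demethylase, showed the largest rise of the 23 genes in MDA-MB-231, from 8.59, 8.73 and 8.51 to 9.36, 9.33 and 9.30 (0.72 ± 0.113 SE; limma adjusted p = 3.41e-04). The 4 other intracellular targets were not called. BNIP3 and BNIP3L, already high in this line, changed by 0.20 (limma adjusted p = 0.131) and 0.23 (limma adjusted p = 0.0565), NDRG1 by -0.09 and ANKRD37 by 0.19. BNIP3L crossed the threshold without MDA-MB-231 vehicle 1 (limma adjusted p = 0.0454) or HCC70 JQ1 1 (0.0443).

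In HCC70, the third comparison, JQ1 raised more of these genes than it lowered: 8 rose (BNIP3, KDM3A, EGLN1, LDHA, ADM, TPI1, PGAM1 and BNIP3L), 2 fell (VEGFA and HK2) and 13 were not called. The rise of BNIP3 was 2.44-fold, and the fall of VEGFA 1.62-fold. The 10 of 23 called (43.5%) compare with 21.7% of all genes, the 8 rises with 9.18% and the 2 falls with 12.5%. The median log2 change was 0.12 over the 23 genes and 0.01 over all genes. Many of the calls were close to the threshold: without HCC70 vehicle 1, HCC70 vehicle 2 or HCC70 JQ1 2 the count was 5, 6 and 6. With all 53617 transcript clusters fitted and adjusted together it was also 6, and without the 3 arrays numbered 3 it was 9. Centring on array medians gave 10 rises and 2 falls, with 56.1% rises among all called genes in place of 42.3%.

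EGLN1, the main HIF prolyl hydroxylase, rose from 8.58, 8.55 and 8.37 to 8.94, 8.90 and 8.80 (0.38 ± 0.087 SE; limma adjusted p = 0.00661), which brought its mean to 8.88, beside 8.88 in JQ1-treated MDA-MB-231. EPAS1 (0.16), ARNT (-0.11) and EGLN3 (0.01) were not called.

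Among the glycolytic enzymes 3 rose and 1 fell. LDHA went from 6.70, 6.70 and 6.80 to 7.19, 7.15 and 6.97 (0.37 ± 0.116 SE; limma adjusted p = 0.0369), and all 3 JQ1 arrays stayed more than 1 log2 unit below any MDA-MB-231 array. TPI1 rose by 0.35 ± 0.108 (SE; limma adjusted p = 0.0334) and PGAM1 by 0.31 ± 0.078 (SE; limma adjusted p = 0.0109). HK2, the enzyme at the entry of the pathway, fell from 6.98, 7.16 and 6.98 to 6.48, 6.73 and 6.50 (-0.47 ± 0.137 SE; limma adjusted p = 0.0267). Leaving out single arrays ended 3 of these calls and spared PGAM1. LDHA was not called without any HCC70 vehicle array or without HCC70 JQ1 1 or 2 (adjusted p = 0.0616 to 0.120), TPI1 without HCC70 vehicle 1 or 2 or HCC70 JQ1 1 or 2 (0.0855 to 0.140), and HK2 without any HCC70 vehicle array or without HCC70 JQ1 1 or 3 (0.0517 to 0.105). The JQ1 and vehicle arrays of HCC70 did not overlap for any of the 4, which were called on these same arrays. The share over all genes was not counted. HK1, GPI, GAPDH and PGK1 changed by 0.09, 0.12, 0.17 and -0.03 without a call, and PGM1 by -0.11.

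VEGFA fell in this line too, from 7.92, 7.99 and 7.86 to 7.25, 7.19 and 7.23 (-0.70 ± 0.098 SE; limma adjusted p = 2.16e-04). ADM again rose, from 6.27, 6.35 and 6.49 to 6.79, 6.82 and 6.60 (0.36 ± 0.094 SE; limma adjusted p = 0.0139), a call lost without HCC70 vehicle 1 (0.0634) or HCC70 JQ1 2 (0.0664). STC1, ANGPTL4 and ERO1A changed by -0.09, 0.10 and 0.08 and were not called.

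BNIP3 showed the strongest response in HCC70, from 6.62, 6.90 and 6.60 to 8.04, 7.97 and 7.97 (1.29 ± 0.093 SE; limma adjusted p = 1.04e-06). Even so, its level with JQ1 stayed below that of vehicle-treated MDA-MB-231, where the lowest array read 10.25. KDM3A rose from 7.36, 7.59 and 7.74 to 8.29, 8.11 and 7.97 (0.56 ± 0.113 SE; limma adjusted p = 0.00292). BNIP3L rose by 0.27 ± 0.082 (SE; limma adjusted p = 0.0312), but not with HCC70 fitted alone (0.0593), or without any HCC70 vehicle array or HCC70 JQ1 2 or 3 (0.0595 to 0.133). NDRG1 and ANKRD37 changed by -0.17 and 0.22 without a call.

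The lines were then compared in their response. VEGFA fell in both, ADM and KDM3A rose in both, and 7 of the 23 genes were called in neither. Of all 14884 genes, 1025 fell in both, 609 rose in both and 9318 were called in neither. No gene of the 23 moved in opposite called directions, which was also rare over all genes. Of those, 79 rose in MDA-MB-231 and fell in HCC70, and 89 did the reverse. Only a test of the difference shows that the lines responded differently, and 3 genes passed it (13.0%), beside 15.0% of all genes; all 3 differences were positive (HCC70 minus MDA-MB-231), beside 9.02% positive and 5.95% negative over all genes. No negative difference was called by limma, and 2 had an unadjusted p under 0.05. Without the 3 arrays numbered 3, 4 genes passed. VEGFA fell less in HCC70, with a difference of 1.41 ± 0.138 (SE; limma adjusted p = 2.18e-05). BNIP3 rose more in HCC70, by 1.08 ± 0.131 (SE; limma adjusted p = 1.16e-04). ERO1A, called lower with JQ1 in MDA-MB-231 and not called in HCC70, differed by 0.58 ± 0.127 (SE; limma adjusted p = 0.00779). These 3 calls held in all 12 fits that left out 1 array. The median difference was 0.09 over the 23 genes and 0.00 over all genes.

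The remaining 20 genes did not pass the test of the difference, among them HK2 (-0.55, 95% interval -0.97 to -0.13; limma adjusted p = 0.0835), EGLN3 (0.40; 0.0924), EGLN1 (0.35; 0.0805) and GPI (0.32; 0.0797). HK2 passed with the replicate block (limma adjusted p = 0.0397), with quantile normalization (0.0234) and without MDA-MB-231 vehicle 2 (0.0222), and EGLN3 without MDA-MB-231 vehicle 3 (0.0313). With trend and robust moderation HK2 (0.0394), EGLN1 (0.0226), GPI (0.00143) and PGM1 (0.0246) passed. The same genes passed among genes above the median level (0.0253 to 0.0468). With array weights EGLN3 (0.0403), GPI (0.0355), PGM1 (0.0367) and STC1 (0.0358) passed. STC1 also passed without the 3 arrays numbered 3 (0.0334). Across the 23 genes, the JQ1 changes of the lines correlated at r = 0.637, and at 0.485 without VEGFA, beside 0.422 across all 14884 genes. Genes on the same arrays are not independent, so this is a description.

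**Figure D3:**
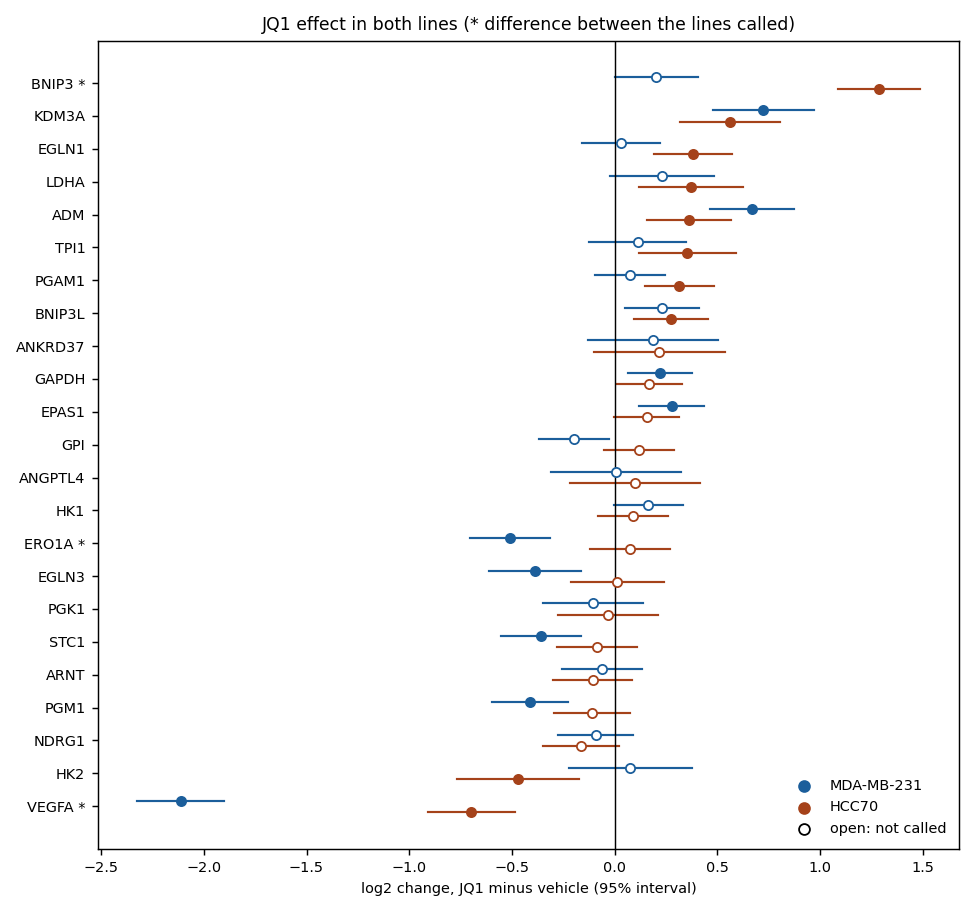
Log2 change with JQ1 (JQ1 minus vehicle) of the 23 genes in MDA-MB-231 and HCC70, with 95% intervals from limma; filled points are called and a star marks a called difference between the lines. VEGFA lies lowest in both lines (-2.11 and -0.70), while BNIP3 is at 0.20 in MDA-MB-231 and 1.29 in HCC70.

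Proliferation genes moved with JQ1 beside these changes. All 14 measured fell in MDA-MB-231 and 12 of 14 in HCC70, with median changes of -1.99 and -0.54, and all 14 passed the test of a smaller fall in HCC70; CCNA2, a cyclin of DNA replication and entry into mitosis, fell by 2.46 and 1.01 on the log2 scale. Of the 4 mesenchymal markers 1 fell in MDA-MB-231 and 2 in HCC70, and of the 8 epithelial markers 3 rose and 1 fell in each line. None of the 5 endothelial, adipocyte and fibroblast markers was called with JQ1 by limma (1 in MDA-MB-231 and 0 in HCC70 had an unadjusted p under 0.05), and of the 2 blood cell markers CSF1R was lower in MDA-MB-231 (means 6.37 and 5.92; not called without MDA-MB-231 vehicle 2 or any MDA-MB-231 JQ1 array, adjusted p = 0.0641 to 0.138). The part of these changes in those of the hypoxia and glycolysis genes was not tested.

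Around the 23 genes, 9 further lists cover the neighbouring steps. Of 12 genes for HIF degradation and coactivators 4 were measured. With JQ1, EP300, a histone acetyltransferase that HIF recruits, rose by 0.39 in MDA-MB-231, where CUL2, the scaffold of the ligase that destroys HIF, and ARNT2, a relative of ARNT, fell by 0.39 and 0.90. In HCC70 only CREBBP, the relative of EP300, was called, with a fall of 0.58. Between the vehicle lines 3 of the 4 were higher in HCC70 and ARNT2 lower, at a mean of 4.75, below the lower quartile of 4.81.

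Other hypoxia targets numbered 28, of which 14 were measured. With JQ1 none rose by limma's test (1 at an unadjusted p under 0.05) and 5 fell in MDA-MB-231, against 3 rises and 4 falls in HCC70. LOX, an enzyme that crosslinks collagen, fell by 1.83 in MDA-MB-231, and VLDLR, a lipoprotein receptor, by 1.17 there and 0.67 in HCC70. TMEM45A fell by 1.08 in HCC70, where LOXL2, a relative of LOX, and WSB1 rose by 0.81 and 0.37. For 7 of the 14 the lines differed in response, and 6 of these differences, HCC70 minus MDA-MB-231, were positive. Among them were CA12, a carbonic anhydrase of the cell surface (1.34), and LOX (1.26). Neither gene rose in HCC70. The CA12 mean went from 7.98 to 6.61 in MDA-MB-231 and from 6.01 to 5.97 in HCC70. The LOX mean went from 6.23 to 5.65 in HCC70. Between the vehicle lines 4 were higher and 8 lower in HCC70; LOXL2 differed by -3.50 and DDIT4, an inhibitor of mTORC1, by -2.18.

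Of 21 other glycolysis and pyruvate genes 8 were measured. LDHB, the lactate dehydrogenase subunit that complements LDHA, had means of 8.57 in MDA-MB-231 and 4.91 in HCC70 with vehicle. The difference was -3.66 ± 0.138 (SE, limma adjusted p = 2.81e-10). Its HCC70 mean lay near the lower quartile of 4.81, so the size of this difference is uncertain. Of the 8 genes, 3 were lower in HCC70 and 2 higher. Both measured lactate dehydrogenase genes were thus lower in HCC70. JQ1 lowered PDP1, the phosphatase that activates pyruvate dehydrogenase, by 0.76 in MDA-MB-231, and raised MPC2, a subunit of the mitochondrial pyruvate carrier, by 0.35 in HCC70; in all, 2 rose and 1 fell in MDA-MB-231 and 2 rose in HCC70. Both rises in MDA-MB-231, of MPC1 and MPC2, were lost without MDA-MB-231 vehicle 2 or JQ1 2, MPC1 also without vehicle 3 or JQ1 1 and MPC2 without vehicle 1 or JQ1 3 (limma adjusted p = 0.0533 to 0.103 and 0.0525 to 0.0677); MPC2 was not called with the replicate block either, where its adjusted p lay at the threshold. The other rise in HCC70, of TIGAR, was lost without MDA-MB-231 JQ1 2, any HCC70 vehicle array, or HCC70 JQ1 1 or 2 (0.0542 to 0.174). Of 10 glycogen genes 5 were measured, with 1 rise and 2 falls in MDA-MB-231 and 1 of each in HCC70. The calls in HCC70 were weak: the rise of PGM2 was lost without any 1 of the 6 HCC70 arrays (limma adjusted p = 0.0558 to 0.124), and the fall of UGP2 without any 1 of them but HCC70 vehicle 3 (0.0572 to 0.146). The fall of PGM2 in MDA-MB-231 was lost without the 3 arrays numbered 3 (0.0566). UGP2, which makes the UDP-glucose used for glycogen, fell by 0.96 and PGM2L1 rose by 0.80 in MDA-MB-231. The 5 included 4 that were higher in vehicle-treated HCC70 than in MDA-MB-231 and 1 that was lower, GYS1, not called without vehicle 1 or 2 of either line (limma adjusted p = 0.0787 to 0.130). Of 7 pentose phosphate genes 6 were measured; none was called by limma with JQ1 in MDA-MB-231 (1 had an unadjusted p under 0.05), and in HCC70 RPIA was lower by -0.62, a call lost without HCC70 vehicle 1 or 2 or HCC70 JQ1 3 (limma adjusted p = 0.0557 to 0.0849). PGD was higher in HCC70 by 1.46 and TALDO1 lower by -0.76 with vehicle.

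For mitochondria, 11 of 22 genes of pyruvate dehydrogenase and the citric acid cycle were measured. JQ1 raised 2 and lowered 2 in MDA-MB-231, and raised 4 and lowered 1 in HCC70. Of the 2 falls in MDA-MB-231, that of IDH3B was lost without vehicle 1 or 2 or JQ1 1 or 3 of that line (limma adjusted p = 0.105 to 0.125). OGDH, a subunit of the oxoglutarate dehydrogenase complex, rose in both lines, by 0.57 and 1.21, and more in HCC70 (difference 0.64 ± 0.120 SE; limma adjusted p = 0.00292). DLAT, a core subunit of pyruvate dehydrogenase, fell in both, by 0.86 and 0.38. Between the vehicle lines 5 were lower in HCC70, with PDHB at -1.23, and 1 higher. Of 17 genes of the respiratory chain 8 were measured, with 1 rise and 2 falls in MDA-MB-231, 1 fall in HCC70, and 4 higher and 2 lower between the vehicle lines; COX4I1, a subunit of cytochrome oxidase, changed by -0.33 in MDA-MB-231, a call lost without the 3 arrays numbered 3 (limma adjusted p = 0.0577). The rise in MDA-MB-231, of COX4I2, was lost without vehicle 1 or 2 or JQ1 2 or 3 of that line (limma adjusted p = 0.0539 to 0.117). The fall of CYC1 there was lost with the replicate block (0.0555) and without any MDA-MB-231 vehicle array or JQ1 2 or 3 (0.0595 to 0.101), and its fall in HCC70 without HCC70 vehicle 2 (0.0630) or 3 (0.0688). COX6C, 1 of the 2 that were lower between the vehicle lines, was not called without MDA-MB-231 vehicle 2 or HCC70 vehicle 1 or 3 (0.0533 to 0.0682).

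The collagen-modifying list had 2 of 8 genes measured. P3H1, a prolyl hydroxylase of collagen, rose by 1.24 in HCC70 with JQ1, from a vehicle mean of 6.97 to 8.21, while MDA-MB-231 had a vehicle mean of 9.13; both genes of the list were lower in HCC70 with vehicle. All 5 genes of glucose sensing by MondoA and ChREBP were measured. TXNIP, a glucose-induced protein that limits glucose uptake, rose with JQ1 by 0.55 in MDA-MB-231 and by 1.08 in HCC70, and its relative ARRDC4 by 1.18 in MDA-MB-231. MLX, the partner of MondoA, fell by 0.54 in MDA-MB-231. With vehicle, 4 of the 5 were lower in HCC70, TXNIP by -2.88.

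**Figure D4:**
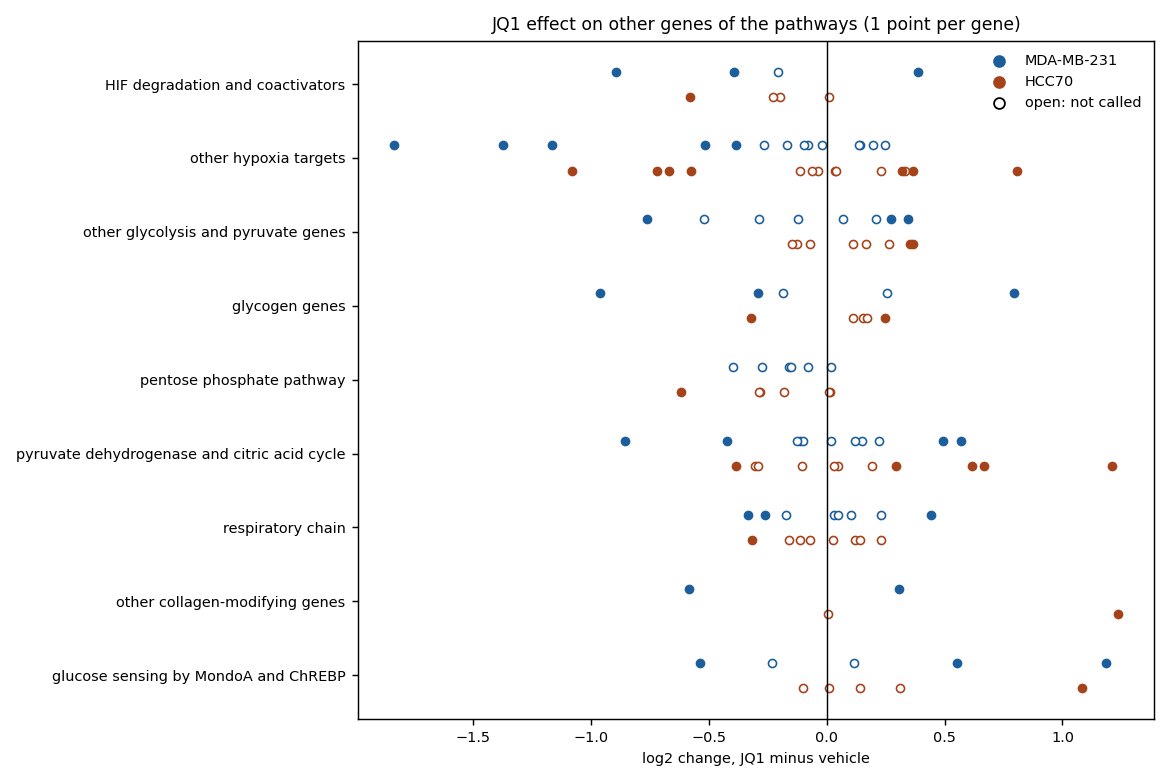
Log2 change with JQ1 of each measured gene of the 9 neighbouring lists, 1 point per gene, in MDA-MB-231 and HCC70; filled points are called. The other hypoxia targets reach -1.83 (LOX) in MDA-MB-231, and the highest citric acid cycle point is OGDH in HCC70 at 1.21.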

How the data were processed

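Total RNA, 150 ng per sample, was labelled for Human Gene 2.0 ST arrays. The deposited values are log2 signals, made by the authors with RMA in oligo per the submitters' processing notes, which also name limma; versions and the genome build are not given in the sources used here. Of 53617 transcript clusters 16098 carry 1 gene symbol, none several and 37519 none; a gene with more than 1 cluster (779 of 14884, none among the 23) was represented by the brightest.

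All 12 arrays were fitted in 1 group-means model with limma 3.58.1 (R 4.3.3), with 4 contrasts and Benjamini-Hochberg adjustment over all genes; this was tested on simulated data. No depth applies, and the number of arrays limits the precision. For each contrast the 5 largest called rises and falls are given array by array, and of each neighbouring list up to 2 called genes per direction. The members and lists were chosen with earlier results of these data known. In MDA-MB-231 the deviations of same-numbered arrays correlated at 0.155, 0.121 and 0.362. Vehicle 2 and JQ1 1, of different numbers, also gave 0.121, and the other different-numbered arrays gave -0.25 to 0.0381. Same-numbered arrays of HCC70 gave -0.06, 0.01 and 0.07. The main model used no pairs. Only the replicate block took the numbers as pairs, which the labels do not state. Alternatives were the replicate block, each line alone, trend with robust moderation, a filter on dim genes, averaged clusters, all clusters, quantile normalization, centring, array weights, a log2 change of 1 and each array left out. Leaving out the 3 arrays numbered 3 together was added after seeing the data.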

Additional observations from a re-analysis of the deposited data

Results flagged for a closer look

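The genes named here had different JQ1 effects in the lines by the test of the difference itself (limma, adjusted over all genes); values are HCC70 minus MDA-MB-231 on the log2 scale. Of the 23 genes these were VEGFA at 1.41, BNIP3 at 1.08 and ERO1A at 0.58.

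Among other hypoxia targets the difference was 1.34 for CA12, 1.26 for LOX and -0.91 for MXI1, a repressor that competes with MYC for its partner. Among genes of glycogen, pyruvate and the citric acid cycle it was 0.61 for PDP1, 0.64 for UGP2, 0.54 for PGM2 and 0.64 for OGDH. It was 0.93 for P3H1, which modifies collagen, and 0.68 for MLX of glucose sensing. These 9 differences were called in each of the 12 fits that left out 1 array.

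The difference was less stable for EP300 at -0.38, CREBBP at -0.37, PGM2L1 at -0.62, IDH3A at 0.45 and ARRDC4 at -0.87. Of the 12 fits that left out 1 array, 9 lost the EP300 call (limma adjusted p = 0.0512 to 0.0913), 11 that of CREBBP (0.0539 to 0.0987), 7 that of PGM2L1 (0.0507 to 0.0622), 3 that of IDH3A (0.0512 to 0.0556) and 8 that of ARRDC4 (0.0560 to 0.0934). With the replicate block the differences of EP300 (limma adjusted p = 0.0612) and CREBBP (0.0622) were not called.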

How the results depend on the processing

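Of the 23 genes 9 were called for JQ1 in MDA-MB-231, 10 for JQ1 in HCC70, 3 for the difference of the effects and 21 between the vehicle lines. With the replicate block the first 3 counts were 8, 9 and 4; the vehicle lines share no pairs, so no block was fitted there. In MDA-MB-231 the replicate block changed no call of the 23 genes other than GAPDH. In HCC70 it ended the call of BNIP3L (limma adjusted p = 0.0623).

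Requiring a log2 change of at least 1 left 1 gene in MDA-MB-231 (VEGFA), 1 in HCC70 (BNIP3), and 8 between the lines. In HCC70 the count was 6 when all transcript clusters were fitted and 5 to 10 when 1 array was left out. In the other direction it was 13 with array weights and 12 with centring on array medians. It was 11 with quantile normalization and with trend and robust moderation. For the difference it was 7 with trend and robust moderation, 7 among genes above the median level and 7 with array weights. No called change of the 23 genes turned its sign under any alternative run; the causes of these shifts were not tested. With 3 arrays a group, SEs of the changes with JQ1 ran from 0.073 to 0.146 on the log2 scale, which limits the calls on small changes.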
